A study of Mus musculus with 22 samples.

Results

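The 10 genes described here make up the core of the Hippo cascade, and their RNA was measured in the ventricles of mouse embryos that lacked Lin9, Sav1 or both. They are the rows of the count tables whose symbol is Sav1, Stk3, Stk4, Lats1, Lats2, Mob1a, Mob1b, Nf2, Yap1 or Wwtr1, which are 10 of 48709 gene rows. The rule used names alone, but the members were chosen with earlier results of these data known. All 10 genes passed the filter on low counts in both experiments, which left 19752 genes tested in the first experiment and 17675 in the second.

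RNA-seq was performed on ventricular tissue at E13.5, and the study asked how the Hippo-YAP pathway is connected to MuvB, the cell cycle complex to which LIN9 belongs. The first experiment compared 3 LIN9 wt with 3 LIN9 KO libraries, all Sav1 wt. The second experiment held 12 libraries, 3 each of LIN9 wt with Sav1 wt (control), LIN9 KO with Sav1 wt (LIN9 KO), LIN9 wt with Sav1 KO (Sav1 KO), and LIN9 KO with Sav1 KO (double KO). By the study's methods, LIN9 wt stands for Lin9 fl/+ and LIN9 KO for Lin9 fl/fl, Sav1 wt for Sav1 +/+ and Sav1 KO for Sav1 fl/fl, in a C57/Bl6 background. Every group carried Nkx2.5-Cre, which is driven from a gene of cardiac precursor cells, and every group carried a floxed Lin9 allele, so the controls were heterozygous for the Lin9 deletion wherever Cre had acted. Cells of the ventricle outside the Nkx2.5 lineage kept their floxed exons. The sources do not say whether the 3 libraries of a group came from separate embryos. A figure legend of the paper describes the Lin9 comparison as 2 biological replicates, each in triplicate, and does not define the triplicates. The methods state that RNA was isolated in triplicates. The 3 libraries of a group may thus be triplicates of a single biological replicate. The p-values therefore measure the spread between these libraries.

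The Hippo pathway is a kinase cascade that restrains organ growth. The kinases MST1 and MST2 (Stk4 and Stk3), held by the scaffold SAV1, activate the kinases LATS1 and LATS2 together with the MOB1 co-activators, and NF2 (Merlin) brings LATS to the membrane. LATS kinases phosphorylate YAP (Yap1) and TAZ (Wwtr1), which are then kept out of the nucleus. Unphosphorylated YAP and TAZ bind TEAD factors on DNA, and in the heart this drives cardiomyocyte proliferation. Much of this control acts on proteins, whereas the values here are amounts of RNA.

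The Sav1 allele removes exon 3, and its sequence is shown because the Sav1 counts have to be read against it. The exon lies at chr12:69975968-69976238 on the minus strand of GRCm38, within the gene at chr12:69965012-69987002. It holds 271 bases, all of them coding, and its length leaves a remainder of 1 when divided by 3. The capitals mark the site of the forward Sav1 primer of the study's qPCR, at bases 227 to 247 of the exon, and the reverse primer lies in exon 4.
Sav1 exon 3: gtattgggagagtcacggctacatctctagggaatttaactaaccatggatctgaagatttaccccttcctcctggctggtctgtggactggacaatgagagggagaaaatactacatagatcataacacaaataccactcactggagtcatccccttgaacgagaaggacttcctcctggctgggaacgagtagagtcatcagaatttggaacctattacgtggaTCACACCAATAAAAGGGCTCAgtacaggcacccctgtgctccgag

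Promoter sequences of Wwtr1 and Nf2 are shown because these are the members whose RNA differed with Lin9 genotype, and that of Yap1 because it is the close relative of Wwtr1. Each runs from 250 bases before to 50 bases after a start site of RefSeq on GRCm38.p6, 5′ to 3′, and all 3 genes lie on the minus strand. Capitals mark matches, looked for on both strands, to GGAATG, the core of the TEAD motif, or to TTTGAA, the core of the cell cycle homology element that MuvB binds. Neither motif overlaps the other here. The Wwtr1 window is chr3:57575861-57576160, the Yap1 window chr9:8004547-8004846, and the Nf2 windows are chr11:4849495-4849794 and chr11:4833086-4833385.
Wwtr1 start site 1: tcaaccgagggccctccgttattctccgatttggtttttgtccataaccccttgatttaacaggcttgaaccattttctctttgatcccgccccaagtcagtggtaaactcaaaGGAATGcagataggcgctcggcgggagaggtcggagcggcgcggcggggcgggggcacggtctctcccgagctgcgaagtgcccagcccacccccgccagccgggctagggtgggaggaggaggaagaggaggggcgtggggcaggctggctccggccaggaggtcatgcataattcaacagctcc
Yap1 start site 1: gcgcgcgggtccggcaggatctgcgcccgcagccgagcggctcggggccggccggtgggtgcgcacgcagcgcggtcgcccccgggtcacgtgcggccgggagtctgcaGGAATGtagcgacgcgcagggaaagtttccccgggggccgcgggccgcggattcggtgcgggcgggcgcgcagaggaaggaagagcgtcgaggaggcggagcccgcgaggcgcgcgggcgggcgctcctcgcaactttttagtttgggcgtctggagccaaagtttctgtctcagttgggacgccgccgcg
Nf2 start site 1: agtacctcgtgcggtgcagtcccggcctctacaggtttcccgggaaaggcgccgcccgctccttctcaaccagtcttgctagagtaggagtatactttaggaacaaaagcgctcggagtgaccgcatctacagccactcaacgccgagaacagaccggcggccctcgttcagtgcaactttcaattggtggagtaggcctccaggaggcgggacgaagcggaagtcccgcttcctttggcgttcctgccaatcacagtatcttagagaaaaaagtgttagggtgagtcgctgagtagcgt
Nf2 start site 2: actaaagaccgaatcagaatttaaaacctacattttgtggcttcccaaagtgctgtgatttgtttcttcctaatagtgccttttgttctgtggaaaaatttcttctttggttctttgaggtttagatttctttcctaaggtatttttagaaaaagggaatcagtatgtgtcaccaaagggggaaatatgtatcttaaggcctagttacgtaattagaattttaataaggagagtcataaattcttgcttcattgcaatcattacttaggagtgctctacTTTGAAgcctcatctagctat

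Entries were matched for 9 of the 10 members, all but Stk3. GGAATG or its reverse complement was present in those of Sav1, Lats2, Mob1a, Yap1 and Wwtr1, and in 14.6% of 32544 mouse promoters. The match began at base -136 of the first Wwtr1 start site, at -141 of Yap1 and at -106 of Sav1. TTTGAA or its reverse complement was present at a second start site of Nf2 and of Lats2, and in 17.8% of all promoters. The variant TTCGAA, present in 1.56% of promoters, was in no window of a member. The promoters of Stk4, Lats1 and Mob1b held none of these letters. A match is a description of these windows and not a binding site.

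Every member was detected in all 6 groups, and whether their levels were equal between groups was not tested. Values are CPM, which are counts scaled to the size of each library after TMM normalisation, and over all 18 libraries the highest value of a member was between 1.33 times (Lats1) and 1.99 times (Mob1b) the lowest. Nf2 was lower and Wwtr1 higher in LIN9 KO than in LIN9 wt ventricles in each of the 3 comparisons of Lin9 genotype, at 0.785, 0.811 and 0.823 times the LIN9 wt level for Nf2 and at 1.20, 1.35 and 1.23 times for Wwtr1. Nf2 passed the test in the first experiment (edgeR adjusted p = 0.0177) but not in the second (0.0531 and 0.0719), and Wwtr1 passed in both comparisons of the second (0.00224 and 0.0318) but not in the first (0.0943). Sav1 was lower in all libraries with Sav1 KO than in the other libraries of the second experiment, and it passed between double KO and control (adjusted p = 0.00874). The remaining members did not pass the test in any comparison.

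**Figure D1:**
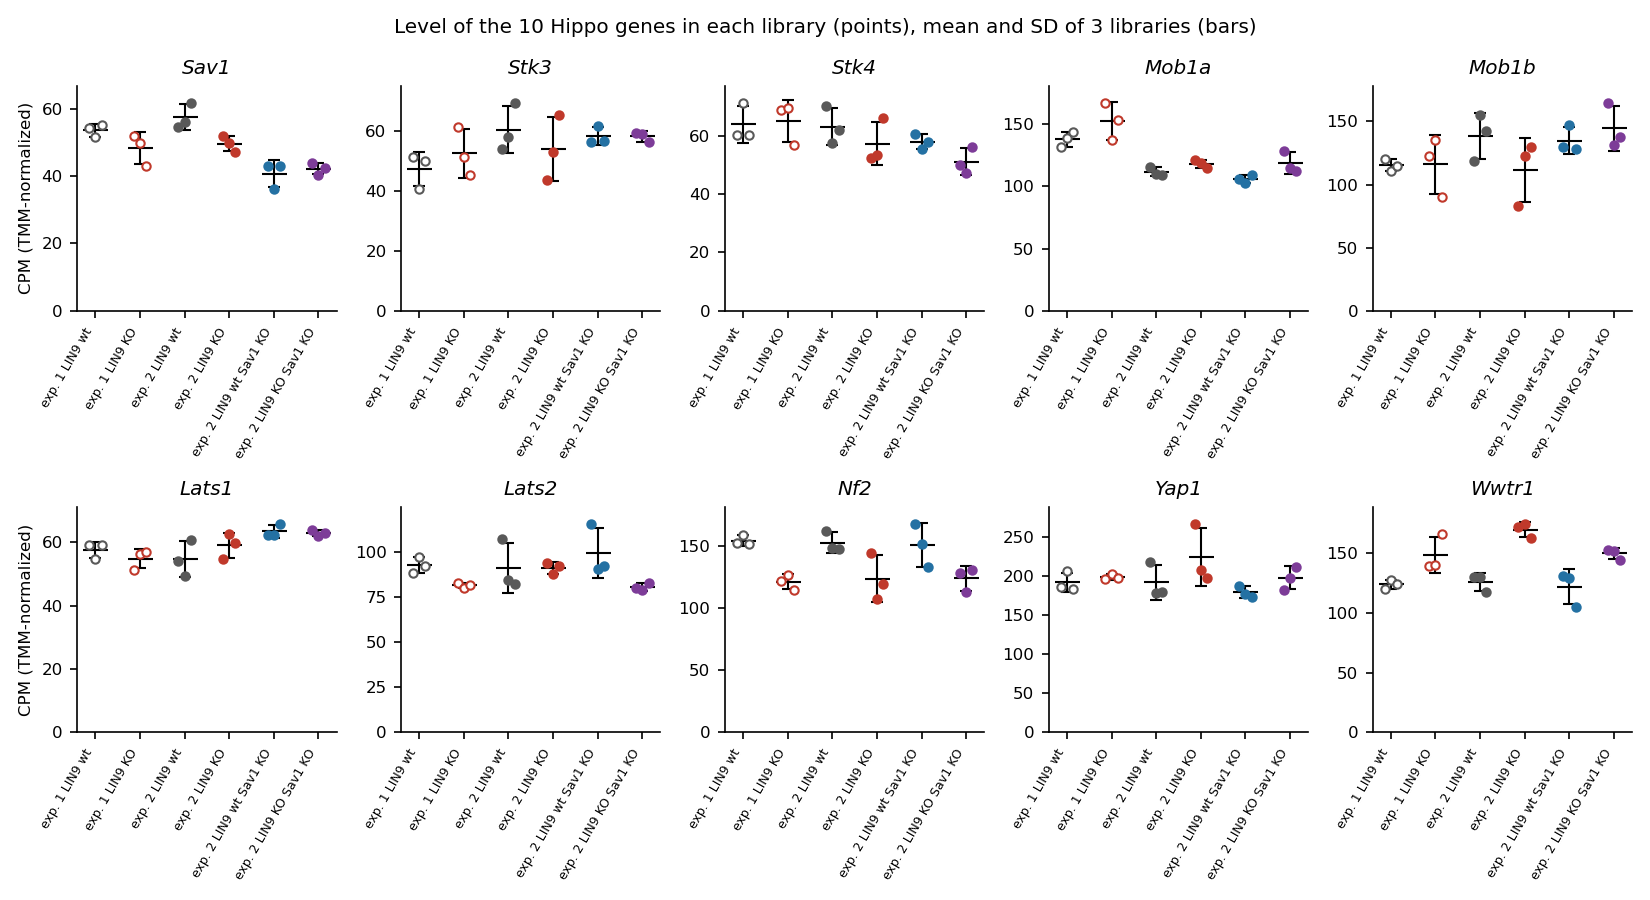
CPM (vertical axes, starting at 0) of each of the 10 genes in each library (points), by genotype group (horizontal axes), with the mean and SD of 3 libraries as a line and bars. Sav1 in Sav1 KO and double KO libraries lies between 36.1 and 43.9 CPM, below all other libraries of the second experiment, and Wwtr1 in its LIN9 KO and double KO libraries lies between 144.7 and 174 CPM, above the others.

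Differences were tested gene by gene with the quasi-likelihood model of edgeR, and a gene passed where its p, adjusted over all genes tested, was under 0.05. With Lin9 deleted, 1 of the 10 members passed in the first experiment (Nf2, lower), where 20.9% of all 19752 genes passed. In the second experiment 1 member passed with Sav1 wt (Wwtr1, higher), where 23.2% of 17675 genes passed, and 1 with Sav1 KO (Wwtr1, higher), where 23.4% passed. Between double KO and control 1 member passed (Sav1, lower), against 20.6% of genes. A count of 1 in 10 members is too small to set apart from these shares of all genes. The comparisons of the second experiment also share groups. The median log2 fold change of the members was 0.016 in the first experiment, where that of all genes was 0.016, and it was -0.073 with Sav1 wt and 0.026 with Sav1 KO in the second, where those of all genes were 0.0083 and 0.032.

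Deletion of Sav1 moved no member past the threshold. In edgeR, 0 of 10 passed in LIN9 wt, where 0.017% of genes passed, 0 of 10 in LIN9 KO, where 0.0113% passed, and 0 of 10 in the average over both LIN9 genotypes, where 0.0453% passed. At an unadjusted p under 0.05 there was 1 member in each of these comparisons, which was Sav1 in LIN9 wt and in the average, and Mob1b in LIN9 KO. Of all 17675 genes, 694 had such a p in LIN9 wt, 2091 in LIN9 KO and 1564 in the average. DESeq2 also passed 0 members in each, but it gave no adjusted p for Sav1 in the last 2 of these comparisons. The interaction of Sav1 and LIN9, which asks whether the response to 1 deletion depended on the other, passed for 0% of all genes and 0 members, and 0 members had an unadjusted p under 0.05. For all genes the interaction had 1153 at an unadjusted p under 0.05, and DESeq2 passed 0.

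**Figure D2:**
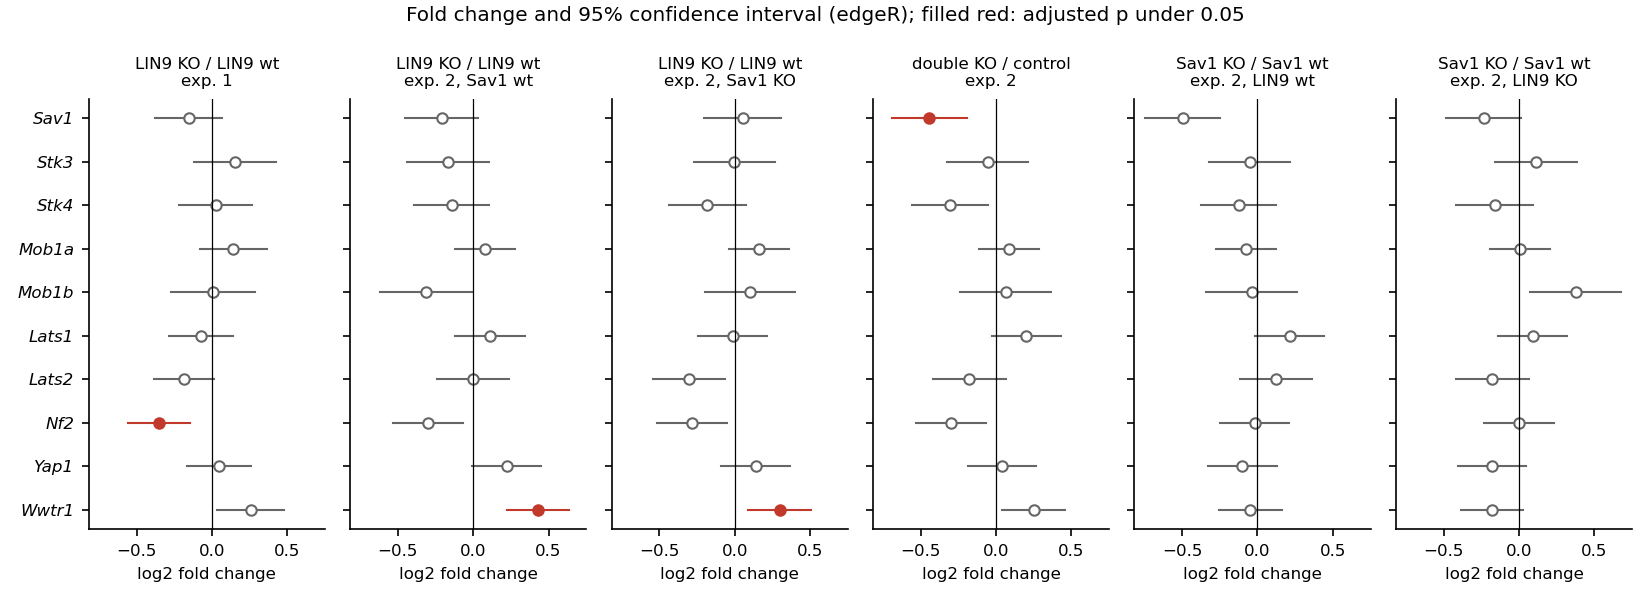
Log2 fold change (horizontal axes) of the 10 genes (rows) with its 95% confidence interval from edgeR, in 6 comparisons (panels); filled red points passed an adjusted p of 0.05. Nf2 in the first experiment, Wwtr1 in both LIN9 comparisons of the second and Sav1 in the double KO are filled, at -0.35, 0.43, 0.30 and -0.44.

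Groups whose 3 libraries did not overlap were also counted. In the first experiment 3 members did not overlap between LIN9 KO and LIN9 wt (Nf2 and Lats2 below, Wwtr1 above), where 36.5% of all genes did not. With Sav1 wt in the second experiment there were 3 (Nf2 and Sav1 below, Wwtr1 above) against 35.1% of genes, and with Sav1 KO there were 4 (Nf2 and Lats2 below, Wwtr1 and Mob1a above) against 41.1%. For Sav1 KO against Sav1 wt there were 2 in LIN9 wt (Sav1 below, Lats1 above) against 12.1%, and 4 in LIN9 KO (Sav1, Lats2 and Wwtr1 below, Mob1b above) against 15.1%. Double KO and control differed in this way for 5 members (Sav1, Stk4 and Nf2 below, Lats1 and Wwtr1 above) against 37.4%. With 3 libraries against 3, an exact permutation test of a single gene cannot go below 0.1, so these orders are descriptions.

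Library totals ran from 9485599 to 9615274 counts in the first experiment and from 2770741 to 2999877 in the second, and the members had between 107 (Sav1) and 1955 (Yap1) counts in a library. Replicate 3 of LIN9 KO in the second experiment stood apart from its 2 fellows, with a chi-square per degree of freedom of 13.8 and 19.5 over genes against 5.81 between them. Without it, the Sav1 comparison in LIN9 KO passed 377 genes instead of 2, the averaged one 44 instead of 8 and the interaction 64 instead of 0, while the number of members past the threshold in these 3 stayed at 0. Of Lin9 itself, the floxed exon 7 makes up 2.18% of the exonic bases, so its gene-level count is a weak check of the deletion. Lin9 was at 21.4 to 29.8 CPM in LIN9 wt and 19.2 to 21.4 CPM in LIN9 KO of the first experiment, at 23.2 to 29.2 CPM in control and 13.1 to 17.9 CPM in LIN9 KO of the second, and at 18.5 to 26.0 CPM in double KO against 19.2 to 31.4 CPM in Sav1 KO. In LIN9 KO with Sav1 wt it passed the test in the second experiment (log2 fold change -0.80, SE 0.192, adjusted p = 0.00269), and it did not in the first (-0.31, adjusted p = 0.130) or in double KO against Sav1 KO (-0.16, adjusted p = 0.586). Cardiomyocyte markers of the heart as a whole, such as Tnnt2 with 6482 counts or more in each library, were abundant, and atrial markers were also present, Myl4 with 4640 counts or more. By contrast, Actc1 and the erythroid marker Alas2 are listed at 0 in all 18 libraries.

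Cell type markers moved with Lin9 genotype in the same tissue samples, and their part in the results was not tested. Summed over 12 cardiomyocyte genes, LIN9 wt was at 22734 to 23569 and LIN9 KO at 10738 to 14870 CPM in the first experiment. In the second, whatever the Sav1 genotype, LIN9 wt was at 25388 to 28343 and LIN9 KO at 12684 to 15937 CPM. Of the 11 cardiomyocyte genes tested, 7 fell and 0 rose past the threshold in each of the 3 comparisons of Lin9 genotype. The 6 epicardial genes summed to 279 to 293 CPM in LIN9 wt and 496 to 561 CPM in LIN9 KO, and the 7 fibroblast genes to 2263 to 2583 and 4645 to 5056 CPM, in the first experiment. The 7 macrophage genes went from 89.8 to 99.3 CPM in LIN9 wt to 179 to 204 CPM in LIN9 KO, and the 7 erythroid genes from 2635 to 3745 CPM to 9886 to 26114 CPM. The 4 atrial genes (Sln, Myl4, Bmp10 and Nppa) summed to 2648 to 3143 CPM in LIN9 wt and 3536 to 4176 CPM in LIN9 KO of the first experiment, and to 2183 to 2719 and 3294 to 4210 CPM in the second, and 1, 3 and 3 of the 4 rose in the 3 comparisons of Lin9 genotype. No sum over cardiomyocyte, fibroblast, epicardial, macrophage, erythroid or atrial genes overlapped between LIN9 KO and LIN9 wt in either experiment. The 8 endothelial genes overlapped in the first experiment, but in the second their sums were 1029 to 1177 CPM in LIN9 KO above 969 to 983 CPM in control, and 948 to 1140 CPM in double KO above 844 to 911 CPM in Sav1 KO. The 4 smooth muscle genes summed to 1422 to 1684 CPM in LIN9 wt and 1983 to 2247 CPM in LIN9 KO of the first experiment, without overlap, and their sums overlapped in both comparisons of Lin9 genotype in the second. In bulk tissue, fewer cells of a type and less RNA per cell cannot be told apart.

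Levels of different members were compared per kilobase of exonic length, because longer transcripts gather more reads. In control ventricles of the first experiment Mob1a was highest at 28.8 ± 1.26 CPM per kb (SD, n = 3), followed by Wwtr1 at 26.0 ± 0.771, Nf2 at 22.6 ± 0.621 and Yap1 at 20.7 ± 1.32. Lats2 followed at 13.3 ± 0.643, and the remaining 5 members lay between 10.9 (Stk4) and 7.67 (Mob1b). Lats2 depends on the length used, because 42.4% of its exonic bases also belong to Gm49361. Its whole count divided by the bases that no other gene covers gave 22.0, 24.2 and 22.9 CPM per kb in these controls. In those of the second experiment this gave 20.4 to 26.6 CPM per kb, overlapping Nf2 and Yap1 in both. Reads over shared bases were not counted apart, so this holds only if the counting had left them out. Sav1, with its whole count likewise divided by its bases outside Atl1, was at 13.1 to 14.1 CPM per kilobase in the first experiment. In the second it was at 13.9 to 15.7, above Stk4 in both, under the same condition. On full exonic length, the libraries of Nf2 and Yap1 overlapped, as did those of Stk4 and Sav1 and those of Lats1, Stk3 and Mob1b, so their order is not resolved. Control ventricles of the second experiment gave the same 4 members on top by full exonic length, with Wwtr1 first at 26.4 ± 1.55 CPM per kb and Mob1a at 23.3 ± 0.781, and Mob1a, Nf2 and Yap1 overlapped in turn. TAZ RNA was thus above YAP RNA per length in both sets of controls, with no overlap of their libraries. In CPM the order was the reverse, at a mean of 192 for Yap1 in both and of 124 and 126 for Wwtr1. The order per length therefore rests on the annotated exonic lengths, 9257 bases for Yap1 and 4779 for Wwtr1. Among paralogues, Mob1a was above Mob1b and Lats2 above Lats1 in all control libraries, while Stk3 and Stk4 overlapped in the second experiment and not in the first. The long annotated length of Mob1b, 15033 exonic bases, enters its low value per kilobase.

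**Figure D3:**
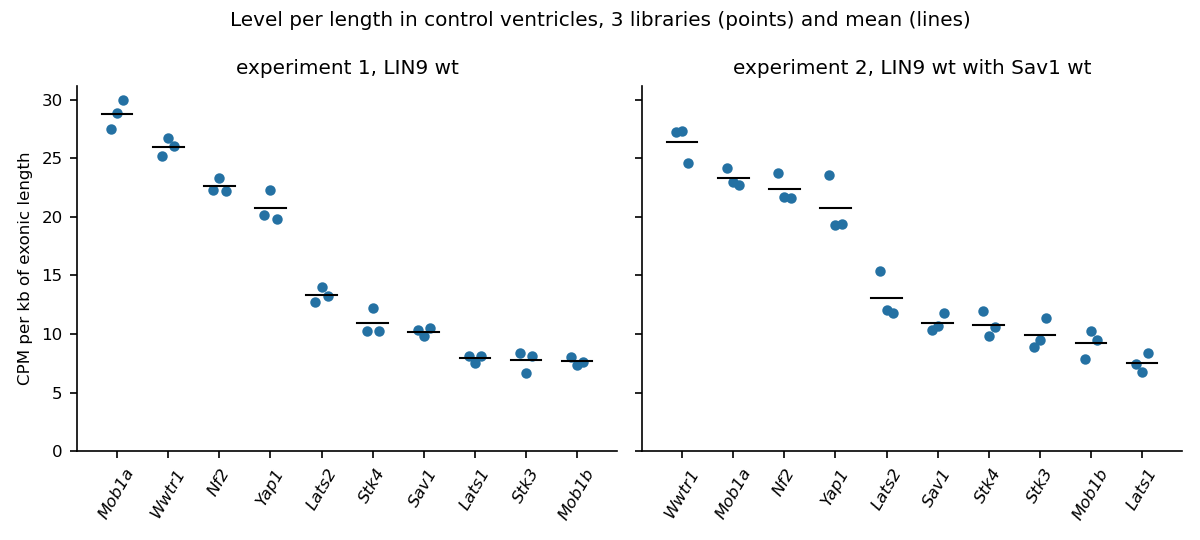
CPM per kb of exonic length (vertical axis, starting at 0) in the 3 control libraries (points) of each experiment (panels), with their mean (lines), ordered by mean. Mob1a, Wwtr1, Nf2 and Yap1 lie at 19.3 CPM per kb or more in every control library, and the other 6 members at 15.3 or less. Dividing the whole count of Lats2 only by its bases outside other genes would put it at 20.4 to 26.6.

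Sav1 encodes the scaffold that holds the MST kinases and is the targeted member. Its level was 54.5, 56.1 and 61.9 CPM in control, 51.9, 49.8 and 47.3 CPM in LIN9 KO, 43.0, 36.1 and 43.0 CPM in Sav1 KO, and 43.9, 40.5 and 42.3 CPM in double KO libraries. All 6 libraries with Sav1 KO lay below all 6 with Sav1 wt, the highest of the former being 43.9 CPM and the lowest of the latter 47.3 CPM. Of all genes, 0.226% separated the 6 Sav1 KO libraries from the 6 Sav1 wt libraries in either direction, and Sav1 was the only member that did. The log2 fold change was -0.50 in LIN9 wt (SE 0.121, edgeR adjusted p = 0.317) and -0.23 in LIN9 KO (SE 0.123, adjusted p = 0.465). Averaged over both it was -0.37 (SE 0.0861, adjusted p = 0.146), and without a filter on low counts this passed at an adjusted p of 0.0287. An exact permutation test of the Sav1 labels within each LIN9 genotype, two-sided, gave p = 0.005 for the difference of -0.36 in log2 CPM, which is the smallest that its 400 relabelings allow. Double KO against control gave -0.44 (SE 0.121, adjusted p = 0.00874), and without control replicate 3 the adjusted p was 0.0533.

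A transcript without exon 3 would still be counted through its other exons. The exon is 5.15% of the exonic bases of the gene and 10.7% of the 2524 bases of the 1 coding transcript. In the annotation 2 of the 3 transcripts of Sav1 hold it. The mean Sav1 level was 29.2% lower in Sav1 KO than in control, and 15.0% lower in double KO than in LIN9 KO. Exon 5, the last one, lies wholly under Atl1 on the opposite strand, and those 1336 bases are 25.4% of the exonic bases of Sav1. Of the 1188 transcript bases outside this overlap, exon 3 makes up 22.8%. Whether the counting used strand is not given in the sources used here, so reads over exon 5 may belong to either gene. How much of the lower count comes from the missing exon and how much from fewer transcripts cannot be told apart from gene-level counts, and cells outside the Nkx2.5 lineage also kept the exon. In the first experiment, where all libraries were Sav1 wt, Sav1 was at 54.3, 51.5 and 55.3 CPM in LIN9 wt and 52.0, 49.9 and 43.0 CPM in LIN9 KO, with groups that overlapped (log2 fold change -0.15, adjusted p = 0.353). Its difference between LIN9 KO and control in the second experiment was -0.21 (adjusted p = 0.224).

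Stk3 and Stk4 encode MST2 and MST1, the kinases at the head of the cascade. Stk3 was at 51.4, 40.7 and 49.9 CPM in LIN9 wt and 61.4, 51.2 and 45.2 CPM in LIN9 KO of the first experiment. Its second-experiment values were 54.1, 57.9 and 69.5 CPM in control, 43.7, 53.1 and 65.2 CPM in LIN9 KO, 56.5, 61.8 and 56.6 CPM in Sav1 KO, and 59.3, 59.1 and 56.2 CPM in double KO. The groups overlapped in every comparison, and the fold changes were within ±0.17 on the log2 scale with adjusted p-values of 0.407 or more. Over 12 alternatives, Stk3 in LIN9 KO against control ran from -0.35 to -0.050, with adjusted p-values of 0.0677 or more. Stk4 was at 60.2, 71.3 and 60.2 CPM in LIN9 wt and 68.9, 69.4 and 56.8 CPM in LIN9 KO of the first experiment. In the second it was at 70.1, 57.5 and 61.9 CPM in control, 52.5, 53.4 and 65.9 CPM in LIN9 KO, 60.5, 55.3 and 58.0 CPM in Sav1 KO, and 50.1, 47.2 and 56.2 CPM in double KO. Only the double KO libraries lay wholly below control, with a log2 fold change of -0.31 (SE 0.123) that missed the threshold (adjusted p = 0.0776). Without double KO replicate 3 this fold change was -0.41 and passed (adjusted p = 0.0419). The 2 kinases shared no exonic stretch of 50 bases with each other, so their reads were separable.

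Lats1 and Lats2 encode the kinases that phosphorylate YAP and TAZ. Lats1 had the smallest ratio of highest to lowest library, at 51.4 to 59.2 CPM in the first experiment and 49.3 to 65.8 CPM in the second. Its Sav1 KO libraries, at 62.2, 62.4 and 65.8 CPM, lay above the control libraries at 54.1, 49.3 and 60.8 CPM, but the log2 fold change of 0.21 (SE 0.113) had an unadjusted p of 0.0693 in edgeR and an adjusted p of 0.999. Lats2 was at 88.5, 97.4 and 92.1 CPM in LIN9 wt and 82.7, 80.2 and 81.4 CPM in LIN9 KO of the first experiment, where no library of LIN9 KO reached the lowest LIN9 wt library (log2 fold change -0.19, SE 0.0944, adjusted p = 0.193). In the second experiment it was at 107, 84.2 and 81.9 CPM in control, 93.6, 87.5 and 92.0 CPM in LIN9 KO, 115, 90.4 and 92.1 CPM in Sav1 KO, and 80.0, 78.8 and 82.8 CPM in double KO. Replicate 1 of control and of Sav1 KO was the highest of its group. The difference between LIN9 KO and LIN9 wt was -0.00089 with Sav1 wt (adjusted p = 0.999) and -0.30 with Sav1 KO (SE 0.117, adjusted p = 0.0619), and the interaction did not pass (-0.30, SE 0.165, adjusted p = 0.792). Over 12 alternatives the difference with Sav1 KO ran from -0.37 to -0.18. It passed in 2, the replicate block (adjusted p = 0.0402) and a fit to 6 libraries (0.0318). Over 17 alternatives the interaction ran from -0.42 to -0.15. In the annotation 42.4% of the exonic bases of Lats2 are shared with Gm49361 on the same strand, so its counts are uncertain in size.

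Mob1a and Mob1b encode the co-activators that LATS needs for full activity. Mob1a was at 132, 138 and 144 CPM in LIN9 wt and 167, 137 and 153 CPM in LIN9 KO of the first experiment. In the second it was at 116, 110.2 and 109 CPM in control, 121, 119 and 114 CPM in LIN9 KO, 106, 103 and 109 CPM in Sav1 KO, and 128, 115 and 112 CPM in double KO. Its fold changes with Lin9 genotype were 0.14, 0.08 and 0.16 on the log2 scale, all positive and none past the threshold (adjusted p = 0.388, 0.630 and 0.248). Mob1b had the largest ratio of highest to lowest library, at 82.7 to 165 CPM over all libraries. In the first experiment it was at 120.2, 111 and 115 CPM in LIN9 wt and 122, 135 and 90.3 CPM in LIN9 KO, with groups that overlapped (log2 fold change 0.0076, adjusted p = 0.984). In the second it was at 119, 155 and 142 CPM in control, 82.7, 122 and 129.7 CPM in LIN9 KO, 129.8, 147 and 128 CPM in Sav1 KO, and 165, 131 and 138 CPM in double KO, and replicate 1 of LIN9 KO was the lowest of the 12. LIN9 KO against control gave -0.31 (SE 0.145, adjusted p = 0.136), which passed with no filter on low counts (0.0238) and without LIN9 KO replicate 3 (-0.46, adjusted p = 0.0263). Over 12 alternatives this difference ran from -0.46 to -0.15, and the highest adjusted p was 0.402. In LIN9 KO ventricles Sav1 deletion gave 0.38 (SE 0.145, adjusted p = 0.303), with double KO libraries all above those of LIN9 KO, and this was 0.21 without LIN9 KO replicate 1. The interaction for Mob1b was 0.41 (SE 0.204, adjusted p = 0.762). Mob1a and Mob1b shared no exonic stretch of 50 bases with each other.

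Nf2 encodes Merlin, the tumour suppressor that recruits LATS to the membrane. In the first experiment it was at 152, 159 and 151 CPM in LIN9 wt and at 122, 127 and 115 CPM in LIN9 KO, so that all LIN9 KO libraries lay below all LIN9 wt libraries. The log2 fold change was -0.35 (SE 0.0971, adjusted p = 0.0177), a level of 0.785 times that of LIN9 wt. This call was lost without any 1 of the LIN9 wt libraries or without LIN9 KO replicate 1, with adjusted p-values of 0.0525 to 0.0651, while the fold change stayed between -0.38 and -0.31 over 11 alternatives. In the second experiment Nf2 was at 162, 148 and 148 CPM in control, 144, 108 and 119 CPM in LIN9 KO, 167, 152 and 133 CPM in Sav1 KO, and 128, 113 and 131 CPM in double KO. The LIN9 KO libraries were again below their LIN9 wt counterparts with either Sav1 genotype, although the 6 LIN9 KO and 6 LIN9 wt libraries overlapped between 133 and 144 CPM. The log2 fold changes were -0.30 with Sav1 wt (SE 0.113, adjusted p = 0.0531) and -0.28 with Sav1 KO (SE 0.113, adjusted p = 0.0719), which missed the threshold. With Sav1 wt, Nf2 passed in 5 of 12 alternatives, which were the replicate block (adjusted p = 0.0217), RLE scaling (0.0443), no filter (0.0285), filterByExpr (0.0475) and leaving out LIN9 KO replicate 1 (0.00388). With Sav1 KO it passed in 3 of 12, the replicate block (adjusted p = 0.0380), a fit to 6 libraries (0.0331) and leaving out Sav1 KO replicate 3 (0.0447). Deletion of Sav1 gave -0.018 in LIN9 wt and 0.0024 in LIN9 KO, with a 95% interval of the averaged difference from -0.17 to 0.16.

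Yap1 and Wwtr1 encode YAP and TAZ, the transcriptional co-activators that the kinases restrain. Yap1 had the highest CPM of the members and was at 186, 206 and 184 CPM in LIN9 wt and 195, 203 and 198 CPM in LIN9 KO of the first experiment, with groups that overlapped (log2 fold change 0.05, SE 0.101, adjusted p = 0.794). In the second it was at 218, 178 and 179.7 CPM in control, 266, 208 and 197 CPM in LIN9 KO, 188, 177 and 173 CPM in Sav1 KO, and 183, 198 and 212 CPM in double KO. Replicate 1 of LIN9 KO was the highest of all libraries, and the groups overlapped in each comparison. LIN9 KO against control gave 0.22 (SE 0.111, adjusted p = 0.162), double KO against Sav1 KO 0.14 (adjusted p = 0.404), and the averaged Sav1 comparison -0.14, with a 95% interval from -0.30 to 0.020. The value for LIN9 KO against control ran from 0.059 to 0.30 over 12 alternatives, with adjusted p-values of 0.0585 or more.

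Wwtr1 was the member with the largest difference between LIN9 KO and control in the second experiment, while between double KO and Sav1 KO Lats2 differed by as much, at -0.30, and in the first experiment Nf2 differed by more, at -0.35. In the first experiment it was at 120.2, 128 and 124 CPM in LIN9 wt and 139.5, 139.9 and 166 CPM in LIN9 KO, with no overlap and a log2 fold change of 0.26 (SE 0.104) that missed the threshold (adjusted p = 0.0943). In the second it was at 130.2, 130.4 and 118 CPM in control, 172, 174 and 163 CPM in LIN9 KO, 131, 129 and 105 CPM in Sav1 KO, and 153, 152 and 144.7 CPM in double KO. All 6 LIN9 KO libraries of this experiment, at 144.7 to 174 CPM, lay above all 6 LIN9 wt libraries, at 105 to 131 CPM, as 17.7% of all genes did in either direction and no other member did. LIN9 KO rose against control by 0.43 on the log2 scale (SE 0.101, adjusted p = 0.00224), which was a level of 1.35 times that of control, and it passed in all 12 alternatives. Against Sav1 KO, double KO rose by 0.30 (SE 0.102, adjusted p = 0.0318), but DESeq2 gave an adjusted p of 0.0614, and the call was lost without Sav1 KO replicate 3 (0.224) and without double KO replicate 1 (0.101), 2 (0.123) or 3 (0.0601). Sav1 deletion gave -0.050 in LIN9 wt (adjusted p = 0.999) and -0.18 in LIN9 KO (adjusted p = 0.497), with a 95% interval of the averaged difference from -0.26 to 0.032. The double KO thus lay between LIN9 KO and the LIN9 wt groups, and the interaction did not pass (-0.13, SE 0.143, adjusted p = 0.916).

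Other genes of the pathway were read from a list of 56 by role, of which 54 were tested. Frmd1 had no row and Ppp2ca is listed at 0 in every library. Pathway genes differed in both directions. With Lin9 deleted, 7 of the 54 rose and 9 fell in the first experiment, a share of 29.6% against 20.9% of all genes, and 11 rose and 10 fell with Sav1 wt in the second, or 38.9% against 23.2%. With Sav1 KO 7 rose and 13 fell, or 37% against 23.4%, and in double KO against control 5 rose and 11 fell, or 29.6% against 20.6%. The list was chosen with earlier results of these data known, so the shares are descriptions. Without LIN9 wt replicate 1 or 3, 8 of the 54 passed in the first experiment, where 2839 and 2722 of all genes passed instead of 4131. None of the 54 passed in edgeR in the Sav1 comparisons or in the interaction.

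**Figure D4:**
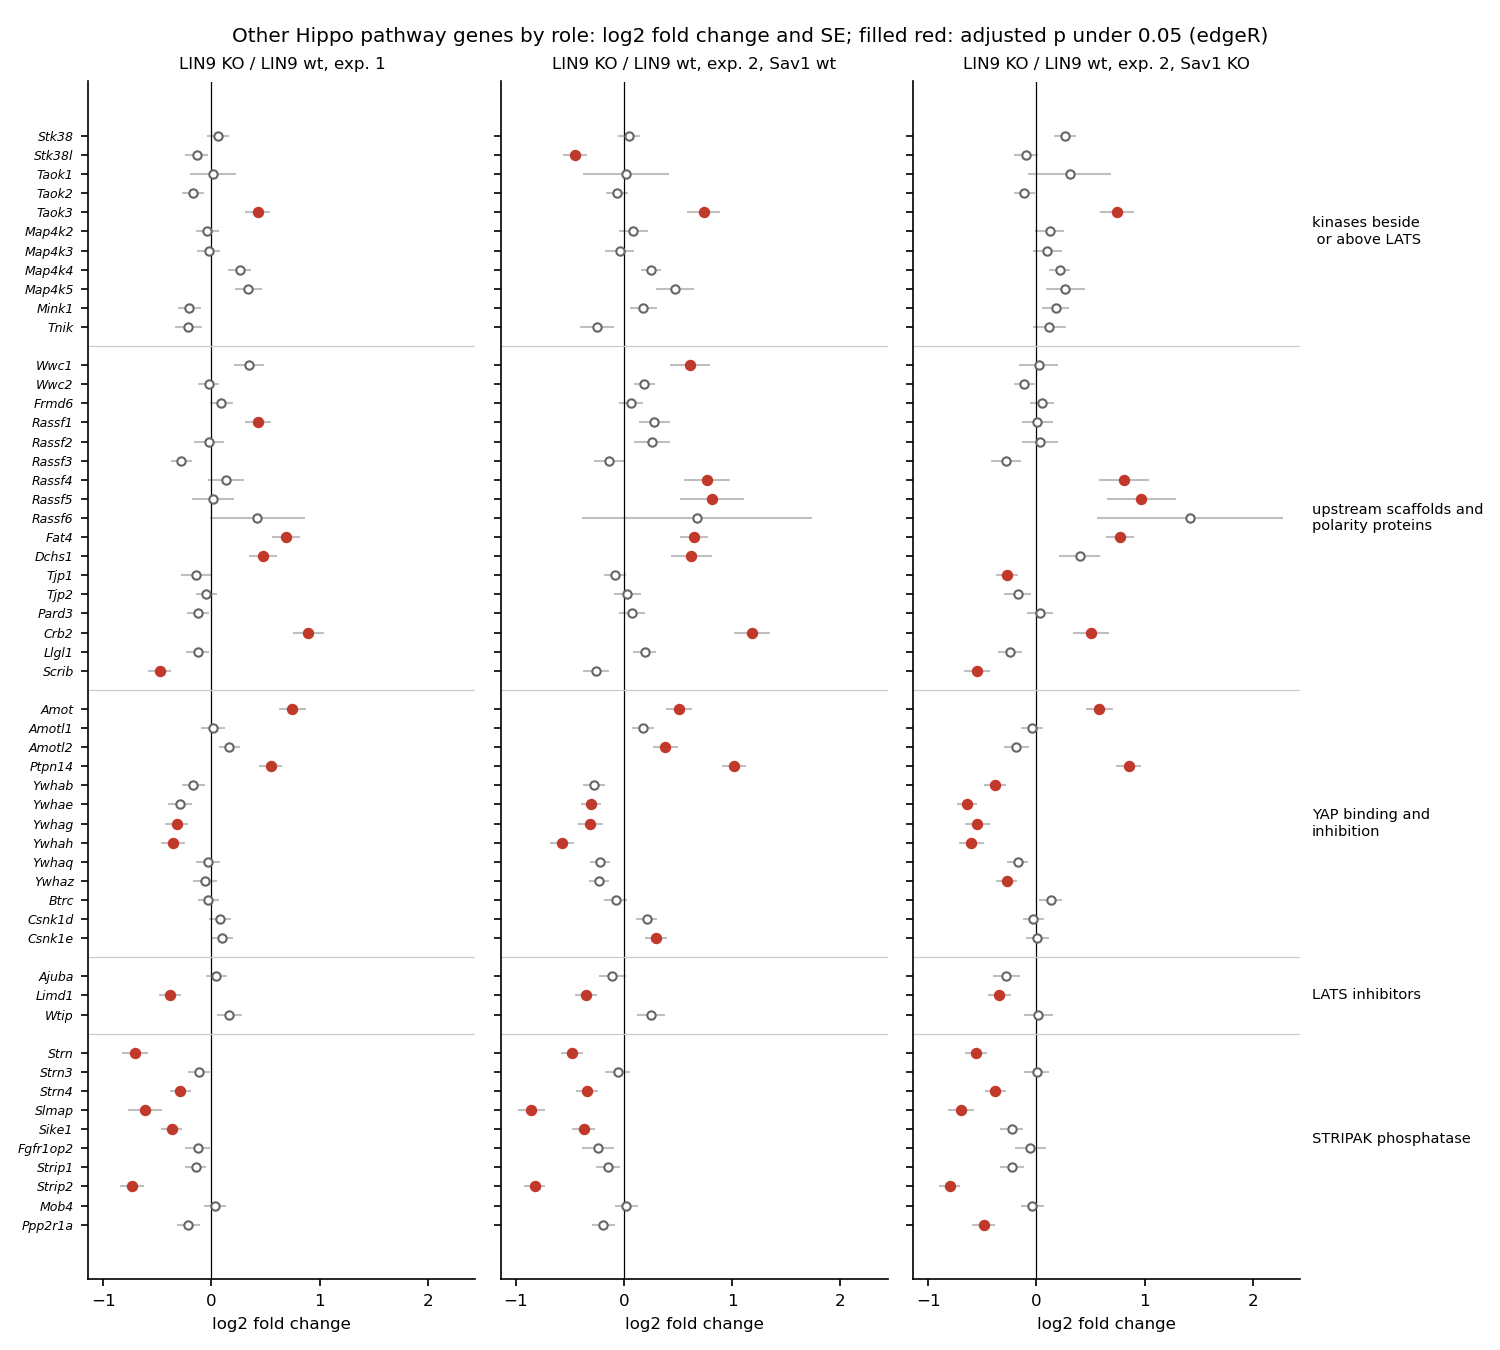
Log2 fold change (horizontal axes) with its SE for 54 other Hippo pathway genes (rows, grouped by role) in the 3 comparisons of Lin9 genotype (panels); filled red points passed an adjusted p of 0.05 in edgeR. No gene of the STRIPAK group is filled to the right of 0, and Slmap and Strip2 lie at -0.61 and -0.73 in the first experiment.

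STRIPAK is the phosphatase complex that removes the activating phosphate from MST kinases. Of its 10 tested genes, 5 fell and 0 rose in each of the 3 comparisons of Lin9 genotype, with medians of -0.25, -0.29 and -0.30, and of all genes 1932 of 19752, 1851 of 17675 and 2054 of 17675 fell. In double KO 6 fell against control, as did 1760 of 17675 genes. Without LIN9 wt replicate 1 or 3, 2 of the 10 fell in the first experiment, where fewer genes passed in all (2839 and 2722). Strip2, a scaffold of the complex, fell by 0.73 in the first experiment (SE 0.111, adjusted p = 0.000262) and by 0.83 and 0.80 in the second. Slmap, which links the complex to MST kinases, fell by 0.61, 0.86 and 0.69, and Strn, a striatin subunit, fell by 0.70, 0.48 and 0.56. Strn4, another striatin, fell by 0.29, 0.34 and 0.38. Slmap is best known from the membranes of heart and skeletal muscle, and cardiomyocyte markers were lower in the same libraries, whose part in these differences was not tested.

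Genes that act on YAP directly moved in both directions. Ptpn14, a phosphatase-like protein that holds YAP in the cytoplasm, rose by 0.55, 1.02 and 0.85 on the log2 scale in the 3 comparisons of Lin9 genotype, and Amot, an angiomotin that binds YAP, rose by 0.75, 0.51 and 0.58. Ywhah and Ywhae encode adaptors that bind phosphorylated YAP. Ywhah fell by 0.35, 0.57 and 0.60, while Ywhae fell by 0.31 and 0.64 in the second experiment and was at -0.29 in the first (adjusted p = 0.0745). In all, 2 of 13 rose and 2 fell in the first experiment, 4 rose and 3 fell with Sav1 wt, and 2 rose and 5 fell with Sav1 KO in the second, or 30.8%, 53.8% and 53.8% against 20.9%, 23.2% and 23.4% of all genes. Limd1, a LIM protein that inhibits LATS, fell by 0.38, 0.35 and 0.34, and the other 2 LATS inhibitors did not pass.

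Polarity, adhesion and scaffold genes act upstream of the kinases. Of 17 tested, 4 rose and 1 fell in the first experiment, 6 rose and 0 fell with Sav1 wt and 4 rose and 2 fell with Sav1 KO in the second, or 29.4%, 35.3% and 35.3% against 20.9%, 23.2% and 23.4% of all genes. In double KO against control 2 rose and 0 fell, or 11.8% against 20.6%. The median of the group was 0.017, 0.26 and 0.033 in the comparisons of Lin9 genotype, where that of all genes was 0.016, 0.0083 and 0.032. Crb2, an apical polarity protein, rose by 0.90, 1.18 and 0.50, and the atypical cadherin Fat4 rose by 0.69, 0.65 and 0.77. Rassf4 and Rassf5 encode RAS-association proteins of the family that binds MST kinases. Rassf4 rose by 0.77 and 0.81 in the second experiment and Rassf5 by 0.81 and 0.97, while in the first they were at 0.13 and 0.017. The single gene of this group that fell in the first experiment was Scrib, a basolateral scaffold, at -0.48, and it fell by 0.55 with Sav1 KO. Among 11 kinases beside or above LATS, Taok3, which can phosphorylate MST kinases, rose by 0.43, 0.74 and 0.74. Stk38l, which encodes a kinase related to LATS, fell by 0.45 with Sav1 wt in the second experiment, and the other 9 did not pass in any comparison.

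Of 6 genes commonly read as YAP targets, 3 rose with Lin9 deletion in the first experiment, 4 and 3 in the second and 3 in double KO against control, and 0 fell. Of all genes 20.9%, 23.2%, 23.4% and 20.6% passed in these comparisons in either direction, and this list too was chosen with results known. In edgeR 0 of these 6 passed in any Sav1 comparison, with a median of 0.089 in the averaged comparison against -0.00032 for all genes. Fibroblast and epicardial genes were higher in the same LIN9 KO libraries, and their part in these counts was not tested.

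Likeness to other genes was measured over the 12 libraries of the second experiment by Pearson's r of log2 CPM, among 12393 genes with a mean of 5 CPM or more. These libraries share genotypes, so r is a description. Wwtr1 was most like Mex3b (r = 0.96), Gsta4 (0.95) and Zfp799 (0.95), and over the 6 libraries of the first experiment r was 0.91, 0.95 and 0.48. Yap1 was most like Prkar1a (0.95), Wasf2 (0.93) and Capns1 (0.92), with 0.28, 0.67 and 0.55 in the first experiment. Lats2 was most like Toe1, Sf3a2 and Trp53rka, each at 0.88, with -0.061, 0.93 and 0.66. Sav1 was most like Snapc1 (0.94), Mtmr12 (0.84) and Gm13414 (0.81), with -0.48, 0.48 and -0.56 in the first experiment, where no library carried the Sav1 deletion.

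Snapc1 lies 4.00 Mb from Sav1 on chromosome 12, and the genes around Sav1 were therefore examined after these values had been seen. Snapc1, which encodes a subunit of the snRNA-activating complex, was at 20.6 to 28.3 CPM in the 6 Sav1 wt libraries and 12.1 to 16.4 CPM in the 6 Sav1 KO libraries of the second experiment. It was among 8 genes that passed in the averaged Sav1 comparison (log2 fold change -0.76, SE 0.123, adjusted p = 0.0104), and so was Sptb, 6.62 Mb away (0.67, SE 0.109, adjusted p = 0.0268). Without control replicate 3 this comparison passed 0 genes, so both calls were lost. It passed 1 gene without Sav1 KO replicate 2 and 1 without Sav1 KO replicate 3. Sptb was at 41.8 to 65.1 CPM in control and 111 to 114 CPM in Sav1 KO, whereas LIN9 KO at 64.8 to 67.0 CPM and double KO at 56.2 to 87.8 CPM overlapped. Within 10 Mb of Sav1, 21% of 100 genes had an unadjusted p under 0.05 in this comparison, against 8.79% of the 17515 other genes. The shares were 15% and 3.85% in LIN9 wt, and 15% and 11.8% in LIN9 KO. Over the 11 to 16 alternatives of each comparison, the share near Sav1 was above that of the other genes except without double KO replicate 2 in LIN9 KO, where the shares were 7.14% and 10.5%. Loss of Sav1 and the chromosome segment that carries its allele cannot be told apart in this design.

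**Figure D5:**
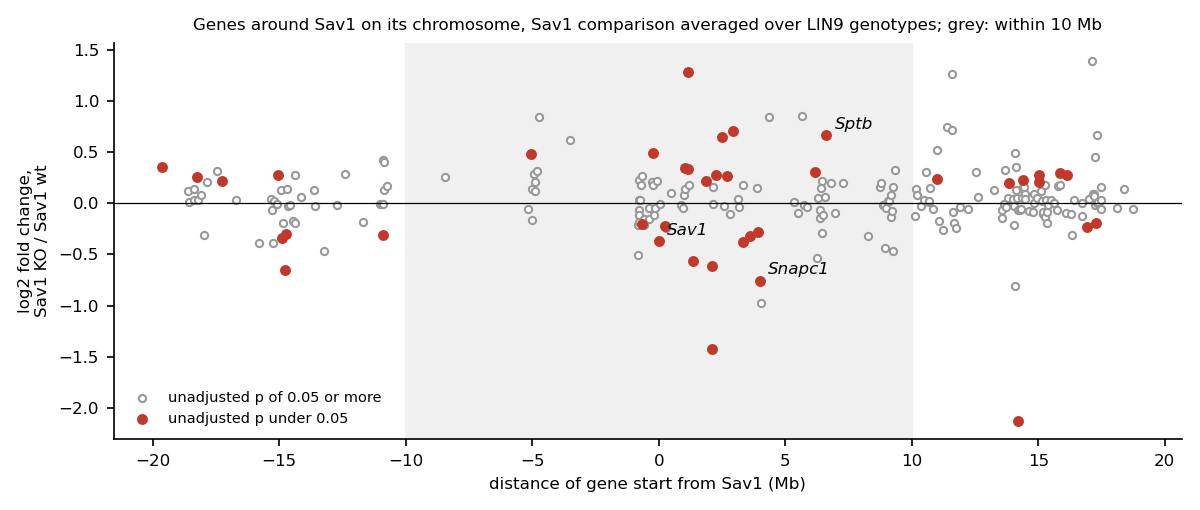
Log2 fold change between Sav1 KO and Sav1 wt averaged over LIN9 genotypes (vertical axis) of genes on chromosome 12 by the distance of their start from Sav1 in Mb (horizontal axis); filled red points have an unadjusted p under 0.05 and grey marks 10 Mb on either side. Snapc1 lies at -0.76 and Sptb at 0.67, and red points lie on both sides of 0 within the grey band.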

How the data were processed

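RNA-seq libraries of E13.5 ventricles were prepared by the authors with an Ultra II RNA kit that is not described as strand-directional. Reads were aligned with TopHat2 2.1.0 and Bowtie 2 to mm10, downsampled to the smallest library and counted per Ensembl GRCm38.p6 gene. The overlap mode and strand setting are not given in the sources used here. The values deposited are raw counts per gene, in 1 table for each experiment. Columns of the authors' own fold changes and p-values were not used, and ChIP-seq was not analysed here.

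Counts of 4 duplicated identifiers were kept once. Genes with a mean count above 1 were fitted with edgeR 4.0.16 (TMM, robust quasi-likelihood, R 4.3.3), with 1 fit per experiment, and p-values were adjusted by Benjamini-Hochberg over all genes at 0.05. Levels are TMM-normalised CPM, with a prior count of 2 for log2 CPM. DESeq2 1.42.0, RLE scaling, other filters, a replicate block, fits to 6 libraries and leaving out each library were alternatives. The fit was tested on simulated counts, whose outcome is not given here and on which no result rests. The members and lists were chosen with earlier results of these data known. Pathway genes are named where they passed in 2 or more comparisons of Lin9 genotype, up to 4 per role by size. Stk38l, Scrib, Sptb and the genes near Sav1 were chosen after their values were seen.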

Additional observations from a re-analysis of the deposited data

How the results depend on the processing

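The number of members past the threshold was small and moved with the settings. In the first experiment 1 member (Nf2) became 2 with the replicate number as a block, where Wwtr1 passed at an adjusted p of 0.0431, and 0 to 1 with a library left out. For LIN9 KO against control, 1 (Wwtr1) became 2 with RLE scaling, 3 with no filter on low counts, 2 with filterByExpr, 2 with the block and 1 to 2 with a library left out. For double KO against Sav1 KO, 1 (Wwtr1) became 0 with DESeq2, 3 with the block (Nf2 0.0380, Lats2 0.0402, Wwtr1 0.0154), 3 in a fit to 6 libraries and 0 to 1 with a library left out. For double KO against control, 1 (Sav1) became 2 with no filter, 3 with the block, 2 in a fit to 6 libraries and 0 to 2 with a library left out. With no filter, the 0 members of the Sav1 comparison in LIN9 KO became 1 (Mob1b), and the 0 of the averaged comparison became 1 (Sav1). The difference of Sav1 in log2 CPM stayed between -0.38 and -0.32 with a library left out.

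No fold change past the threshold changed sign in any alternative, whereas 28 fold changes of members and Lin9 that never passed did so. Over all genes, the Sav1 comparison in LIN9 wt passed 3 genes, 22 with no filter and 31 in a fit to 6 libraries. There it passed 2 with DESeq2 or the block, and 0 to 2 with a library left out. In LIN9 KO it passed 2, and 77 with DESeq2, 309 with no filter, 84 with the block and 0 with filterByExpr or 6 libraries. The averaged comparison passed 8, and 19, 159, 21 and 2 with DESeq2, no filter, the block and filterByExpr. With a library left out it passed 0 to 44. The interaction passed 17 with no filter.

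The replicate numbers were checked for pairing by the correlation of deviations from group means. Over genes of 5 CPM or more, same-numbered libraries of control and LIN9 KO correlated at 0.257 to 0.637, but over all genes tested at 0.0891 to 0.393, and in double KO against Sav1 KO the values were -0.067 to -0.020. Between control and Sav1 KO they were 0.102 to 0.330 over genes of 5 CPM or more and 0.019 to 0.143 over all genes tested. The labels name no shared litter or day, and whether the numbers mark pairs depends on the genes used. Of the members whose groups overlapped, Stk3 and Mob1b were lower and Mob1a and Yap1 higher in LIN9 KO than in control at all 3 numbers, and Stk4 and Yap1 were lower and Lats2 higher in Sav1 KO than in control, and none of these passed with the block. The lowest count of a member was 107 in the second experiment, and 95% intervals of single comparisons reached 0.30 on either side on the log2 scale.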
